A study of Homo sapiens with 6 samples.

Results

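The genes described here run protein folding in the endoplasmic reticulum (ER). They are 51 genes for the stress sensors, the chaperones, the lectin-based folding cycle of glycoproteins, the disulfide isomerases, ER-associated degradation (ERAD), the translocon and the oligosaccharyltransferase. Members were the rows of the expression table whose gene symbol was on this list, 51 of 57688 rows, and 50 of them had a mean of at least 1 FPKM (fragments per kilobase of exon, scaled to the depth of the library) over the 6 libraries. RNA was sequenced from WM3248, an established human cell line from a primary melanoma (labelled VGP). The siPGC1a group was 3 libraries of cells transfected with an siRNA against PPARGC1A, which encodes the transcriptional coactivator PGC-1alpha. The siNC group was 3 libraries of cells transfected with a commercial non-targeting siRNA. Either siRNA was used at 30 nM with a lipid reagent and RNA was taken 48 h later. All cells were of this 1 line, and the labels name 1 siRNA per group. Nothing in them tells whether replicate libraries are separate cultures, so the p-values reflect library-to-library spread that could be purely technical.

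Proteins bound for the secretory route enter the ER through the Sec61 channel and are folded there. BiP and other chaperones hold them, oligosaccharyltransferase adds N-glycans, calnexin and calreticulin retain glycosylated chains until they fold, and protein disulfide isomerases form and shuffle disulfide bonds. Chains that fail are returned to the cytosol for degradation. When unfolded chains accumulate, the sensors IRE1 (ERN1), PERK (EIF2AK3) and ATF6 start the unfolded protein response, in which cleaved ATF6 and spliced XBP1 raise chaperone and ERAD genes and PERK lowers translation and raises ATF4. In pigment cells the same machinery folds melanosomal glycoproteins, among them tyrosinase, a known client of calnexin.

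PPARGC1A was at 0.4, 0.354 and 0.413 FPKM in siPGC1a, against 0.932, 1.042 and 0.947 FPKM in siNC. Every siPGC1a library was below every siNC library, a mean 60.1% lower (0.389 ± 0.031 FPKM in siPGC1a and 0.974 ± 0.0597 FPKM in siNC; SD, n = 3 each; limma adjusted p = 0.000234; exact two-sided permutation p = 0.1, the smallest that 3 against 3 can give). Depth recovered from the FPKM steps was 25180000 to 26500000 reads a library, and the members rested on 68 to 135286 reads each. Of 8 melanocyte lineage markers, 7 averaged at least 1 FPKM. Their summed level was 1415.1 to 1423.8 FPKM in siPGC1a and 1440.2 to 1480.3 FPKM in siNC, a sum of single markers that lay in opposite directions. S100B was at 900.7 to 948.9 FPKM in siPGC1a, above 795.0 to 813.0 FPKM in siNC, while DCT was at 245.4 to 267.6 FPKM in siPGC1a, below 382.8 to 405.1 FPKM in siNC. MITF (5.35 to 5.82 FPKM in siPGC1a and 7.09 to 7.34 FPKM in siNC), PMEL (3.74 to 3.84 FPKM in siPGC1a and 4.99 to 5.53 FPKM in siNC), MLANA and TYR were also lower in every siPGC1a library, and SOX10 and TYRP1 overlapped. The fibroblast list, 2 of 4 of which averaged at least 1 FPKM, summed to 8.15 to 9.56 FPKM in siPGC1a and 11.4 to 12.4 FPKM in siNC, and the keratinocyte list, with KRT1 at 0, to 20.7 to 25.8 FPKM in siPGC1a and 20.5 to 21.3 FPKM in siNC. Nearly all of the keratinocyte sum was KRT10 (mean 21.5 FPKM over the 6 libraries) and most of the fibroblast sum LUM (7.45 FPKM), both above the means of MITF, PMEL, MLANA and TYR. Endothelial and immune markers all averaged under 1 FPKM, with PTPRC at 0. The part of these marker levels in the results was not tested.

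Of the 50 members tested, 28 were lower and 6 higher in siPGC1a, and 16 did not pass the limma threshold of an adjusted p under 0.05. Over all 12020 genes tested, 48.1% passed, 22.5% lower and 25.6% higher, so lower members (56.0%) were more frequent than lower genes in general and higher members (12.0%) less frequent. The median log2 fold change on the log2(FPKM + 1) scale was -0.15 over the members and 0.01 over all genes. In bulk RNA, fewer cells expressing a gene and less RNA per cell cannot be told apart. The siPGC1a values lay wholly below the siNC values in 29 members and wholly above in 6, against 27.4% and 29.8% of all genes. Summed over the 51 members, the level was 5372.5, 5429.3 and 5498.5 FPKM in siPGC1a, against 6432.3, 6298.2 and 6389.2 FPKM in siNC, a ratio of 0.853. This sum took 2.30 to 2.33% of all FPKM in siPGC1a and 2.72 to 2.81% in siNC.

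Summed levels by role group had a ratio of siPGC1a to siNC of 0.745 in the disulfide isomerases, 0.817 in the glycoprotein folding cycle, 0.842 in the chaperones, 0.878 in ERAD and 0.887 in the sensors. The sensor group includes XBP1, its most abundant gene (mean 48.6 FPKM over the 6 libraries). The summed levels of the translocon (0.991) and the oligosaccharyltransferase (0.986) differed least, and these differences between role groups were not tested. The oligosaccharyltransferase sum joins 2 lower and 2 higher genes of 6, whereas 1 of 8 translocon genes passed. Lower calls made up 33.3 to 87.5% of the tested genes of each role group except the translocon, where they made up 12.5%. Fold changes of the tested members ranged from -0.80 (PDIA4) to 0.22 (DAD1) on the log2 scale.

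**Figure D1:**
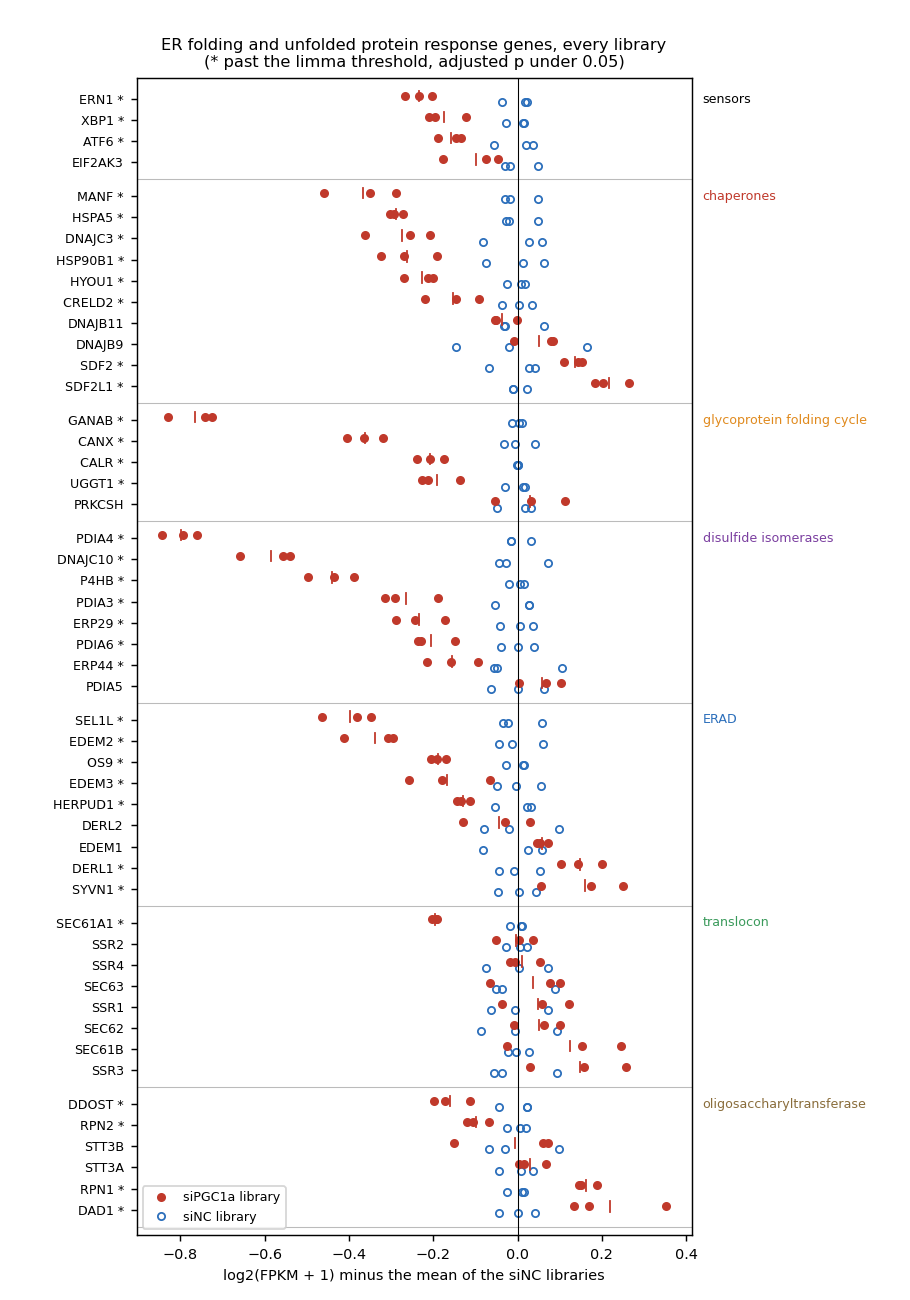
Each point is 1 library of 1 member, as log2(FPKM + 1) minus the mean of the siNC libraries, with siPGC1a filled and siNC open, and the tick is the siPGC1a mean (n = 3 each). Most filled points lie left of 0 in the sensors, chaperones, glycoprotein folding cycle and disulfide isomerases, while 7 of the 8 translocon genes overlap the siNC points.

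The promoters of 7 members hold the letters of the ER stress response element (ERSE), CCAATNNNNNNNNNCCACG, the element through which ATF6 with NF-Y is known to act. Promoters were the RefSeq windows of GRCh38.p14, 250 bases before to 50 after the gene start, which the table gave for 47 of the 51 members. The element was sought on both strands. It occurs in 0.0769% of 35116 RefSeq promoters and in 0.2% of the 9009 tested genes with a promoter. The sites are shown because the genes that hold them include the best known unfolded protein response targets, BiP (HSPA5) and GRP94 (HSP90B1). One site per gene is printed, on the strand of the gene, with the element in capitals; HSP90B1 also holds the element on the other strand. In CALR and CRELD2 the printed element lies on the other strand, so the capitals show its reverse complement.
HSPA5 (chr9:125241383-125241417, minus strand): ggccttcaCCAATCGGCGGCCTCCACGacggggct
HSP90B1 (chr12:103930208-103930242, plus strand): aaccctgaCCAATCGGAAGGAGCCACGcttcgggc
CANX (chr5:179698770-179698804, plus strand): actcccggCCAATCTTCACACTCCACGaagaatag
CALR (chr19:12938376-12938410, plus strand): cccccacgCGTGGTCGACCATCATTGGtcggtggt
PDIA6 (chr2:10812845-10812879, minus strand): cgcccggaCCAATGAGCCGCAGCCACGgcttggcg
XBP1 (chr22:28800595-28800629, minus strand): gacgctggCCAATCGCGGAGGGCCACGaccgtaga
CRELD2 (chr22:49918546-49918580, plus strand): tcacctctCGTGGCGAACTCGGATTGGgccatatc
All 7 of these genes were lower in siPGC1a, with a median log2 fold change of -0.21 and a range of -0.36 to -0.15. Among the 39 tested members whose promoter lacks these letters, 20 were lower, 4 higher and 15 did not pass, with a median of -0.10. The largest falls, those of PDIA4 and GANAB, were among the 39. Of 11 tested genes outside the members whose promoter holds the element, 2 were lower, 4 higher and 5 not past, with a median of -0.04.

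The shorter ERSE-II element, ATTGGNCCACG, was found in 3 members and in 0.0541% of promoters. The sites are set beside the previous set because the 3 genes did not share a direction. HYOU1 and SDF2L1 hold it on the other strand, and HYOU1 holds it at another place as well.
HYOU1 (chr11:119057372-119057398, minus strand): ccccgtgaCGTGGTCCAATcccaggcc
HERPUD1 (chr16:56932017-56932043, plus strand): ggacgccgATTGGGCCACGttgggaga
SDF2L1 (chr22:21642106-21642132, plus strand): ctcggaagCGTGGACCAATcaaaaccc
HYOU1 and HERPUD1 were lower in siPGC1a and SDF2L1 was higher. The letters TGACGTGG of the unfolded protein response element, which binds spliced XBP1 and ATF6, were in the promoters of 6 members (HYOU1, TXNDC5, DNAJC10, SEC62, SSR3 and SSR4) and in 0.729% of promoters. HYOU1 and DNAJC10 were lower, SEC62, SSR3 and SSR4 did not pass, and TXNDC5 was below the level filter and not tested. A match of letters is a description and not a binding site.

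The sensor group also holds XBP1, which is not itself a sensor. In this group the ATF6, ERN1 and XBP1 transcripts were lower in siPGC1a and EIF2AK3 did not pass. ATF6, the ER-bound transcription factor released by cleavage in the Golgi, was at 14.6, 14.1 and 14.5 FPKM in siPGC1a, against 16.6, 15.5 and 16.4 FPKM in siNC (log2 fold change -0.16, limma adjusted p = 0.0133). ERN1, the kinase and nuclease IRE1 that splices XBP1 mRNA, was at 1.15, 1.20 and 1.10 FPKM in siPGC1a, against 1.56, 1.56 and 1.46 FPKM in siNC (-0.23, limma adjusted p = 0.00824). ERN1 was the member nearest above the level filter, at a mean of 1.34 FPKM over 6 libraries, and in ATF6 and ERN1 the groups did not overlap. XBP1, the factor that IRE1 activates, was at 45.0, 44.5 and 47.4 FPKM in siPGC1a, against 52.1, 50.7 and 52.1 FPKM in siNC (-0.18, limma adjusted p = 0.00491). The table has 1 value per gene, so spliced and unspliced XBP1 are not separated. EIF2AK3, the kinase PERK, was at 7.94, 7.17 and 7.76 FPKM in siPGC1a, against 8.55, 8.12 and 8.03 FPKM in siNC, which do not overlap (-0.10, SE 0.05, limma adjusted p = 0.127). The ATF6 call was lost without siNC replicate 3 (adjusted p = 0.0611).

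The chaperones gave 6 lower, 2 higher and 2 not past of 10. HSPA5, which encodes BiP, the ER Hsp70 and keeper of the sensors, was at 226.9, 225.5 and 230.1 FPKM in siPGC1a, against 287.6, 272.7 and 274.3 FPKM in siNC. Every siPGC1a value lay below every siNC value, a mean 18.2% lower (log2 fold change -0.29, SE 0.035, limma adjusted p = 0.000156). MANF, a secreted ER stress protein that binds BiP, was at 25.4, 27.5 and 28.7 FPKM in siPGC1a, against 36.5, 34.8 and 34.5 FPKM in siNC (-0.37, limma adjusted p = 0.000312), the largest fall of the chaperones. HYOU1, the nucleotide exchange factor GRP170 of BiP, was at 59.2, 59.6 and 56.9 FPKM in siPGC1a, against 67.5, 69.2 and 69.6 FPKM in siNC (-0.23, limma adjusted p = 0.000828). In HSPA5, MANF and HYOU1 alike the groups did not overlap. HSP90B1, the ER Hsp90 known as GRP94 and the most abundant member, was at 863.8, 832.7 and 913.1 FPKM in siPGC1a, against 1087.4, 989.6 and 1051.5 FPKM in siNC (-0.26, limma adjusted p = 0.00136).

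Differences between the J-domain partners of BiP in this group were not tested. DNAJC3, which is also an inhibitor of PERK, fell to 18.9 ± 1.08 FPKM in siPGC1a, against 23.0 ± 1.20 FPKM in siNC (limma adjusted p = 0.00246), whereas DNAJB9 (7.83 ± 0.319 FPKM in siPGC1a and 7.55 ± 0.933 FPKM in siNC, adjusted p = 0.588) and DNAJB11 (10.1 ± 0.231 FPKM in siPGC1a and 10.4 ± 0.437 FPKM in siNC, adjusted p = 0.536) did not pass. SDF2L1, a partner of DNAJB11 in ER chaperone complexes, rose: it was at 30.0, 31.8 and 30.4 FPKM in siPGC1a, against 26.1, 26.7 and 26.1 FPKM in siNC (0.22, limma adjusted p = 0.00157). Its relative SDF2 was at 21.9, 22.4 and 22.5 FPKM in siPGC1a, against 19.2, 20.6 and 20.8 FPKM in siNC (0.14, limma adjusted p = 0.0261). CRELD2, an ER stress protein with disulfide isomerase activity, averaged 12.7 ± 0.615 FPKM in siPGC1a and 14.2 ± 0.369 FPKM in siNC (-0.15, limma adjusted p = 0.0222). The SDF2 and CRELD2 calls depended on which library was left out. SDF2 was lost without siPGC1a replicate 2 (0.0597), siPGC1a replicate 3 (0.0554) or siNC replicate 1 (0.0973), and CRELD2 without siPGC1a replicate 1 (0.0784), siNC replicate 2 (0.0591) or siNC replicate 3 (0.0918). Without the level filter HSP90B1 was at 0.0534.

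In the folding cycle of glycoproteins, 4 of 5 genes were lower and PRKCSH did not pass. GANAB, the catalytic alpha subunit of glucosidase II that trims glucose from N-glycans, was at 192.6, 194.6 and 181.3 FPKM in siPGC1a, against 319.7, 325.0 and 323.1 FPKM in siNC. The gap between groups was wide against an SD of 7.20 FPKM in siPGC1a and 2.69 FPKM in siNC (n = 3 each), a mean 41.3% lower (log2 fold change -0.77, SE 0.0373, limma adjusted p = 9.57e-07). PRKCSH, the beta subunit of the same enzyme, was at 165.4 ± 9.54 FPKM in siPGC1a and 161.9 ± 4.84 FPKM in siNC (0.03, SE 0.0469, limma adjusted p = 0.627); the difference between the subunits was not tested. CANX, the membrane-bound lectin calnexin, was at 114.1, 107.5 and 110.8 FPKM in siPGC1a, against 146.9, 139.5 and 142.1 FPKM in siNC (-0.36, limma adjusted p = 7.12e-05). CALR, its soluble counterpart calreticulin and the second most abundant member, was at 768.0, 802.2 and 784.0 FPKM in siPGC1a, against 906.8, 907.1 and 904.4 FPKM in siNC (-0.21, limma adjusted p = 0.000571). Both lectins had every siPGC1a value below every siNC value. UGGT1, the folding sensor that adds glucose back to unfolded glycoproteins, averaged 32.5 ± 1.11 FPKM in siPGC1a and 37.2 ± 0.682 FPKM in siNC (-0.19, limma adjusted p = 0.00347).

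The disulfide isomerases held the largest fall of all members, and 7 of the 8 that passed the level filter were lower. PDIA4, the isomerase ERp72, was at 195.5, 200.3 and 188.8 FPKM in siPGC1a, against 336.3, 336.0 and 347.1 FPKM in siNC. The groups lay far apart against their SDs of 5.77 FPKM in siPGC1a and 6.34 FPKM in siNC (n = 3 each), a mean 42.6% lower (log2 fold change -0.80, SE 0.036, limma adjusted p = 6.57e-07). P4HB, the founding protein disulfide isomerase and also the beta subunit of collagen prolyl 4-hydroxylase, was at 343.3, 355.0 and 329.1 FPKM in siPGC1a, against 458.2, 470.1 and 466.3 FPKM in siNC (-0.44, limma adjusted p = 1.9e-05). DNAJC10, the reductase ERdj5 that opens disulfides of chains bound for degradation, was at 5.36, 4.93 and 5.44 FPKM in siPGC1a, against 8.83, 8.07 and 8.18 FPKM in siNC (-0.58, limma adjusted p = 2.86e-05). In all 3 genes the groups were apart by more than the spread within either.

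The values of the other isomerases lay closer together between the groups. PDIA3, or ERp57, the partner of calnexin and calreticulin, averaged 186.0 ± 8.71 FPKM in siPGC1a and 223.7 ± 7.14 FPKM in siNC (limma adjusted p = 0.000881). PDIA6 averaged 231.8 ± 8.08 FPKM in siPGC1a and 267.3 ± 7.22 FPKM in siNC (limma adjusted p = 0.00199). ERP29, a thioredoxin-fold protein without a catalytic site, averaged 33.9 ± 1.43 FPKM in siPGC1a and 40.0 ± 1.13 FPKM in siNC (limma adjusted p = 0.00183). ERP44, which returns escaped oxidases and client proteins from the Golgi, averaged 15.8 ± 0.701 FPKM in siPGC1a and 17.7 ± 1.20 FPKM in siNC (limma adjusted p = 0.04). That call was lost without siPGC1a replicate 1 (0.0896), siPGC1a replicate 2 (0.114) or siNC replicate 1 (0.138). PDIA5 did not pass (15.5 ± 0.571 FPKM in siPGC1a and 14.9 ± 0.699 FPKM in siNC, limma adjusted p = 0.344). TXNDC5 was the member below the level filter, at 0.713, 1.01 and 1.08 FPKM in siPGC1a and 0.586, 0.766 and 0.713 FPKM in siNC, which overlap. Of its exon bases, 60.6% are shared with the read-through gene BLOC1S5-TXNDC5, listed at 0 in every library.

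**Figure D2:**
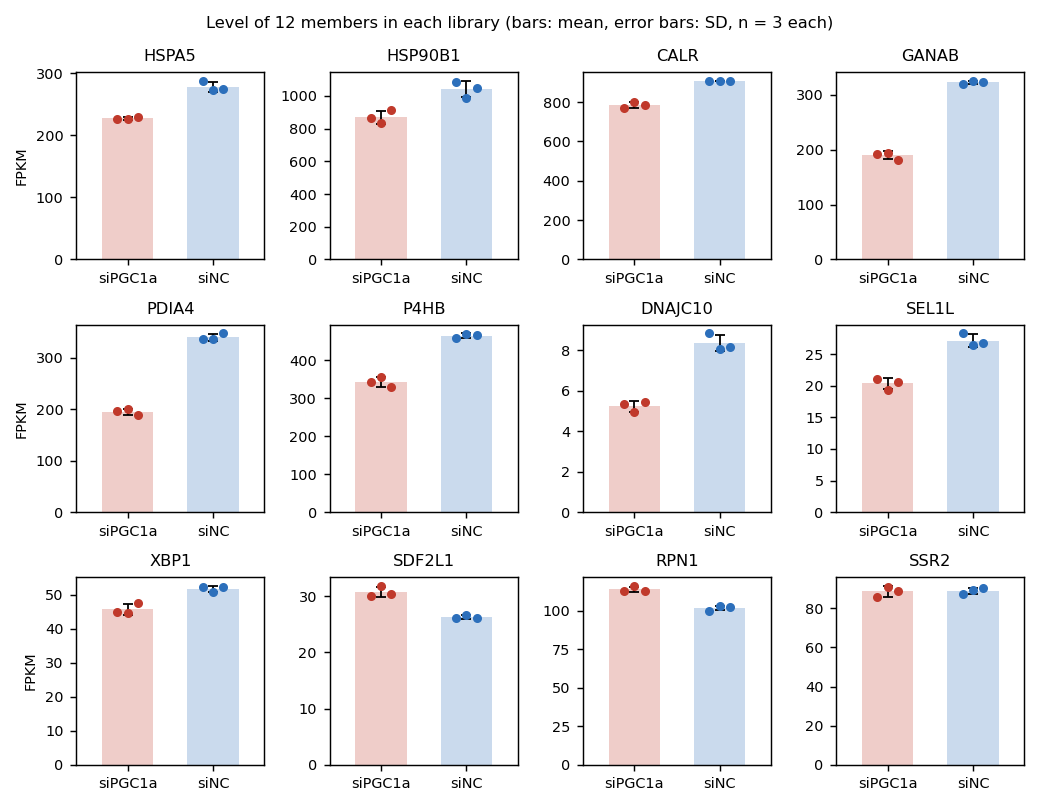
Bars are the mean FPKM of 12 members in siPGC1a (left) and siNC (right), error bars are the SD (n = 3 each) and points are libraries; each axis starts at 0. Relative to the siNC mean, PDIA4 and GANAB have the widest gap between groups. SDF2L1 and RPN1 are higher in siPGC1a, and the SSR2 points overlap.

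The 4 members with the largest log2 falls, PDIA4, GANAB, DNAJC10 and P4HB, share the 6-base word ACACCT in the annotated 3' UTR, as does CANX, which had the seventh largest fall. SEL1L and MANF, whose falls lie between those of P4HB and CANX, do not hold it. This word was taken from earlier results of these data, so its counts here are a description and no independent support. The sites are printed with 10 bases on either side, on the strand of the mRNA from GENCODE v29 transcripts, with the word in capitals and with the first site of each gene shown.
PDIA4: atttttttttACACCTtctaatttct
GANAB: agacgtttccACACCTcttaggggat
DNAJC10: acatcagaagACACCTatttagaatg
P4HB: ctctgaagtgACACCTcacccctaca
CANX: aggacctggcACACCTtaggttgaca
The word stands at 7 places in the DNAJC10 3' UTR, which is 17332 bases long, at 2 in that of CANX and at 1 in the others. Of the 50 tested members, 19 hold it, of which 13 were lower, 1 higher (DERL1) and 5 not past, with a median log2 fold change of -0.19. Of the 31 without it, 15 were lower, 5 higher and 11 not past, with a median of -0.10. The 3' UTRs of the 19 are longer, with a median of 3433 bases against 612 bases. Over all tested genes with a searched 3' UTR, 30.2% hold the word, and 33.1% of these were lower and 18.3% higher, against 17.6% lower and 31.1% higher among those without it. There too the 3' UTRs with the word are longer, with a median of 2475 bases against 766.5 bases. Whether the word has a part in the lower levels was not tested.

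**Figure D3:**
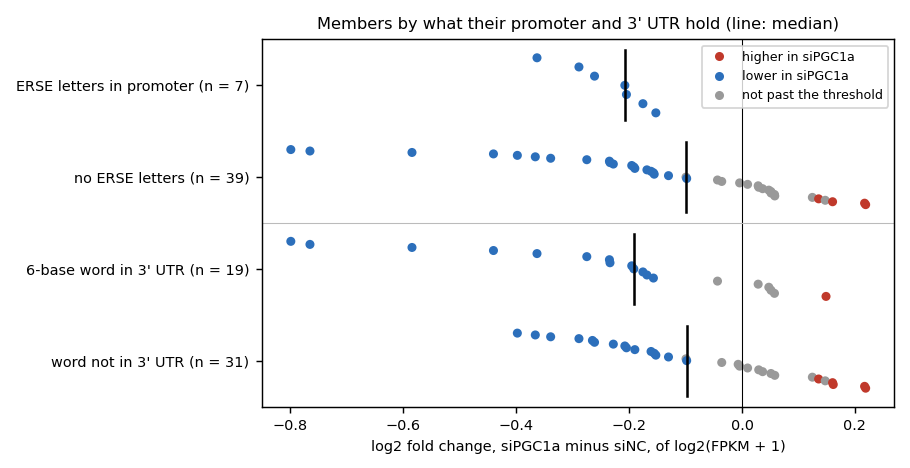
Each point is the log2 fold change of 1 tested member, siPGC1a minus siNC, grouped by whether its promoter holds the ERSE letters (7 members against 39) and whether its 3' UTR holds the 6-base word (19 against 31); lines are medians. All 7 ERSE genes lie left of 0, with a median of -0.21, and the 2 lowest points lie in the word class but not in the ERSE class.

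For ERAD, 5 of 9 genes were lower, 2 higher and 2 not past. SEL1L, the scaffold of the HRD1 ubiquitin ligase, was at 21.1, 19.4 and 20.6 FPKM in siPGC1a, against 28.3, 26.5 and 26.7 FPKM in siNC (log2 fold change -0.40, limma adjusted p = 0.000124). SYVN1, the ligase HRD1 itself, was at 17.7, 18.7 and 16.2 FPKM in siPGC1a, against 15.6, 16.1 and 15.0 FPKM in siNC (0.16, limma adjusted p = 0.0349). Scaffold and ligase thus had opposite signs, with no overlap of groups in either. The SYVN1 call was lost without siPGC1a replicate 1 (0.0908), siPGC1a replicate 2 (0.111), siNC replicate 1 (0.0663) or siNC replicate 3 (0.125). It was also lost without the level filter (0.118) and under quantile scaling (0.127). Among the factors that mark and read glycans for disposal, EDEM2, a mannosidase-like protein, was at 36.7, 39.8 and 39.5 FPKM in siPGC1a, against 47.6, 51.2 and 48.6 FPKM in siNC (-0.34, limma adjusted p = 0.000307). OS9, the lectin that delivers trimmed glycoproteins to SEL1L and the most abundant ERAD member, was at 91.6, 93.9 and 92.5 FPKM in siPGC1a, against 103.9, 106.8 and 106.9 FPKM in siNC (-0.19, limma adjusted p = 0.00151). EDEM1 was low and did not pass (1.43 ± 0.023 FPKM in siPGC1a and 1.34 ± 0.118 FPKM in siNC, limma adjusted p = 0.468).

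Smaller and less stable differences made up the rest of ERAD. EDEM3 averaged 17.4 ± 1.23 FPKM in siPGC1a and 19.6 ± 0.752 FPKM in siNC (limma adjusted p = 0.0291), and was lost without siPGC1a replicate 2 (0.0923), siPGC1a replicate 3 (0.0616), siNC replicate 1 (0.0904) or siNC replicate 2 (0.0643). HERPUD1, a membrane protein that recruits the ligase complex, averaged 15.5 ± 0.184 FPKM in siPGC1a and 17.1 ± 0.59 FPKM in siNC (limma adjusted p = 0.0263), and was lost without siPGC1a replicate 1 (0.0639), siPGC1a replicate 2 (0.0638), siNC replicate 1 (0.0855) or siNC replicate 3 (0.107). DERL1, a rhomboid-like protein of the export channel, was at 14.0, 13.6 and 14.6 FPKM in siPGC1a, against 13.1, 12.5 and 12.2 FPKM in siNC (0.15, limma adjusted p = 0.0226). It was lost without siPGC1a replicate 1 (0.0512), siPGC1a replicate 3 (0.0619), siNC replicate 2 (0.0639) or siNC replicate 3 (0.101). The DERL1 call was also lost without the level filter (0.0535) and under quantile scaling (0.067). Its relative DERL2 did not pass (4.60 ± 0.306 FPKM in siPGC1a and 4.77 ± 0.365 FPKM in siNC, limma adjusted p = 0.589).

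In the translocon group 1 of 8 genes was lower and none was higher. SEC61A1, the pore-forming subunit, was at 79.4, 79.3 and 78.7 FPKM in siPGC1a, against 89.6, 91.5 and 91.2 FPKM in siNC, with a narrow spread in both (log2 fold change -0.20, limma adjusted p = 0.00111). SEC61B, its beta subunit, was at 36.1 ± 3.49 FPKM in siPGC1a and 32.9 ± 0.601 FPKM in siNC (0.12, SE 0.0627, limma adjusted p = 0.128), and passed without siPGC1a replicate 1 (0.00988). SSR2, a subunit of the translocon-associated TRAP complex and the most abundant gene of the group, was at 85.7, 91.1 and 89.0 FPKM in siPGC1a, against 87.1, 89.2 and 90.3 FPKM in siNC. Its groups overlap (log2 fold change -0.0042, SE 0.0377, limma adjusted p = 0.936). Among the other TRAP subunits, SSR3 had the smallest p (36.9 ± 2.98 FPKM in siPGC1a and 33.2 ± 1.93 FPKM in siNC, limma adjusted p = 0.0772) and passed without siPGC1a replicate 2 (0.017) or siNC replicate 1 (0.0354). SSR1, SSR4, SEC62 and SEC63, the last 2 of which serve post-translational import, had log2 fold changes of 0.01 to 0.05.

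In the oligosaccharyltransferase 2 of 6 genes were lower (33.3%), 2 higher (33.3%) and 2 not past. The shares over all tested genes were 22.5% lower and 25.6% higher. RPN1, the subunit ribophorin I, was at 113.1, 116.0 and 112.8 FPKM in siPGC1a, against 100.0, 102.8 and 102.5 FPKM in siNC (log2 fold change 0.16, limma adjusted p = 0.00364). DAD1, a small subunit named for its defence against apoptosis, was at 261.5, 268.2 and 304.5 FPKM in siPGC1a, against 245.2, 238.6 and 231.2 FPKM in siNC (0.22, limma adjusted p = 0.00949). Each was higher in every siPGC1a library than in any siNC library, and the DAD1 call was lost without the level filter (adjusted p = 0.0819). DDOST was at 355.0, 369.7 and 348.6 FPKM in siPGC1a, against 387.9, 406.5 and 405.9 FPKM in siNC (-0.16, limma adjusted p = 0.00576). RPN2, ribophorin II and the most abundant subunit, was at 389.2, 393.1 and 403.2 FPKM in siPGC1a, against 428.9, 415.4 and 424.8 FPKM in siNC (-0.10, limma adjusted p = 0.0325). In neither did the groups overlap. The RPN2 call was lost without siPGC1a replicate 1 (0.0595), siPGC1a replicate 2 (0.0788), siNC replicate 1 (0.112), siNC replicate 2 (0.0564) or siNC replicate 3 (0.123). Under quantile scaling DDOST was at a limma adjusted p of 0.665 and RPN2 at 0.0931. Without the level filter DDOST was at 0.0608 and RPN2 at 0.175, so neither lower call was kept in these settings. The catalytic subunits STT3A (40.2 ± 0.971 FPKM in siPGC1a and 39.4 ± 1.15 FPKM in siNC, limma adjusted p = 0.577) and STT3B (35.4 ± 3.06 FPKM in siPGC1a and 35.5 ± 2.23 FPKM in siNC, limma adjusted p = 0.94) did not pass.

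Of the 14 members with a mean of at least 100 FPKM, 11 were lower (78.6%), 2 higher (RPN1 and DAD1) and 1 not past (PRKCSH), with a median log2 fold change of -0.23. Among the 322 tested genes at that level, 24.8% were lower and 34.5% higher. Of the 19 members from 20 to under 100 FPKM, 10 were lower (52.6%), 2 higher and 7 not past, where 19.5% of all tested genes at that level were lower and 42.1% higher. Of the 17 under 20 FPKM, 7 were lower (41.2%), 2 higher and 8 not past, where 23.1% of all tested genes were lower and 21.8% higher. The log2(FPKM + 1) scale understates the change of low genes such as ERN1 and EDEM1.

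**Figure D4:**
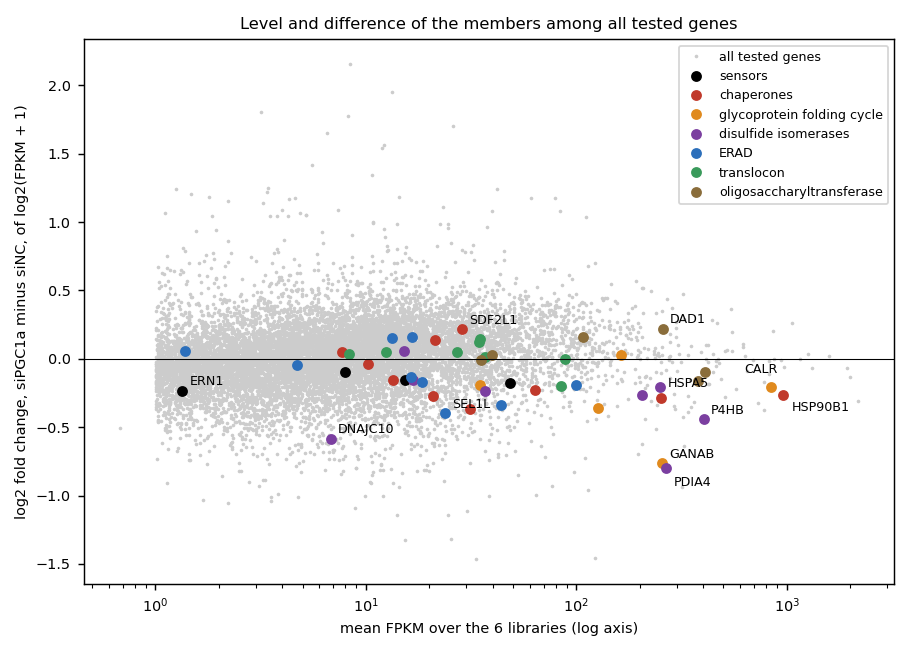
Each coloured point is 1 tested member by role and each grey point another tested gene; the horizontal axis is mean FPKM over 6 libraries (log axis) and the vertical axis the log2 fold change of log2(FPKM + 1), siPGC1a minus siNC. Most members above 100 FPKM lie below 0, with PDIA4 and GANAB lowest, while RPN1 and DAD1 lie above it.

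Other genes of these pathways, 123 on 7 lists of which 115 were tested, leaned neither way. There were 37 higher (32.2%), 33 lower (28.7%) and 45 not past, with a median log2 fold change of 0.02. The shares over all tested genes were 25.6% higher and 22.5% lower. Of 18 genes for oxidative folding and proline isomerisation, a list that also holds the chaperones HSP47 and HSPA13, 11 were lower, 2 higher and 5 not past, with a median of -0.16. SERPINH1, the collagen chaperone HSP47, averaged 150.4 ± 4.58 FPKM in siPGC1a and 244.9 ± 4.25 FPKM in siNC (limma adjusted p = 1.4e-06), and HSPA13, an Hsp70 of microsomes, 15.9 ± 0.21 FPKM in siPGC1a and 21.6 ± 1.15 FPKM in siNC (adjusted p = 9.25e-05). The oxidase ERO1B averaged 20.1 ± 1.05 FPKM in siPGC1a and 17.2 ± 1.25 FPKM in siNC (limma adjusted p = 0.0135). TMX2, a thioredoxin-related membrane protein, averaged 46.3 ± 2.14 FPKM in siPGC1a and 40.5 ± 1.56 FPKM in siNC (limma adjusted p = 0.00797). The ERO1B call was lost without the level filter (0.0704) and without siNC replicate 3 (0.0617).

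The PERK and ATF4 arm, a list chosen with earlier results of these data known, leaned the other way. Of its 13 tested genes, 9 were higher (69.2%), 1 lower (7.7%) and 3 not past, with a median log2 fold change of 0.24. Over all tested genes, 25.6% were higher and 22.5% lower. The 3 not past were ASNS, PPP1R15A and DDIT3. ATF5, a transcription factor translated more under stress, averaged 6.02 ± 0.144 FPKM in siPGC1a and 3.92 ± 0.0465 FPKM in siNC (limma adjusted p = 2.25e-05). TRIB3, a pseudokinase target of ATF4 and CHOP, averaged 21.5 ± 0.538 FPKM in siPGC1a and 16.1 ± 0.442 FPKM in siNC (limma adjusted p = 6.21e-05). The gene that was lower was ATF4 itself, at 55.0 ± 1.06 FPKM in siPGC1a and 61.2 ± 2.09 FPKM in siNC (adjusted p = 0.011), which was lost without siNC replicate 3 (0.0537). Chosen after their values were seen, CHAC1, a glutathione-degrading enzyme, averaged 2.07 ± 0.137 FPKM in siPGC1a and 1.20 ± 0.155 FPKM in siNC (limma adjusted p = 0.000414), and DDIT3, which encodes CHOP, averaged 12.9 ± 0.704 FPKM in siPGC1a and 12.1 ± 0.488 FPKM in siNC (adjusted p = 0.172).

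The remaining lists held calls in either direction, where 25.6% of all tested genes were higher and 22.5% lower. For ATF6 processing and related factors, 4 of 9 were higher (44.4%), 2 lower (22.2%) and 3 not past. NFYA, a subunit of the NF-Y factor that binds the CCAAT part of the ERSE, was higher (14.2 ± 0.659 FPKM in siPGC1a and 10.6 ± 0.168 FPKM in siNC, limma adjusted p = 0.000135) and NFYB, another subunit, lower (4.67 ± 0.27 FPKM in siPGC1a and 6.41 ± 0.534 FPKM in siNC, adjusted p = 0.000885). MBTPS2, the protease that completes ATF6 cleavage, was higher (log2 fold change 0.21, adjusted p = 0.00692) and CREB3 lower (-0.16, adjusted p = 0.0133, lost without siNC replicate 2 at 0.0578). Of 22 further ERAD genes 7 were higher (31.8%), 6 lower (27.3%) and 9 not past, near the shares over all tested genes. The ubiquitin-conjugating enzyme UBE2G2 was at 29.4 ± 0.997 FPKM in siPGC1a and 18.6 ± 0.498 FPKM in siNC. That difference (log2 fold change 0.63, limma adjusted p = 5.58e-06) and UFD1 (0.37) had the smallest adjusted p among the higher genes, and ERLIN2 (-0.28) among the lower ones, followed by RNF185 and ERLIN1 at 1 adjusted p (0.00209).

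Genes that build the N-glycan precursor or accompany the oligosaccharyltransferase gave 7 higher (29.2%), 4 lower (16.7%) and 13 not past of 24. Among all tested genes the shares were 25.6% higher and 22.5% lower. By adjusted p, ALG3 (log2 fold change 0.38) and MPDU1 (0.33) came first among the higher genes, and the small subunit OST4 fell to 179.7 ± 1.36 FPKM in siPGC1a, against 244.5 ± 3.27 FPKM in siNC (limma adjusted p = 8.81e-06), followed by DPM2 (-0.31). Of 20 genes for signal recognition, signal peptidase and other translocation, 6 were higher (30.0%), 6 lower (30.0%) and 8 not past. The signal peptidase subunit SPCS3 had the largest fall of all 115 genes, at 14.2, 12.5 and 14.4 FPKM in siPGC1a, against 28.0, 23.0 and 23.7 FPKM in siNC (-0.81, limma adjusted p = 3.43e-05). The subunits of the signal recognition particle receptor had opposite signs, with SRPRA at 50.0 ± 1.97 FPKM in siPGC1a and 69.4 ± 0.668 FPKM in siNC, and SRPRB at 17.0 ± 0.182 FPKM in siPGC1a and 12.8 ± 0.593 FPKM in siNC. SEC61G, the gamma subunit of the channel, was higher (0.41). Of 9 other unfolded protein response genes, 2 were higher (22.2%), 3 lower (33.3%) and 4 not past. The smallest adjusted p were those of the kinase ASK1 (MAP3K5, 1.89 ± 0.0609 FPKM in siPGC1a and 0.944 ± 0.083 FPKM in siNC, limma adjusted p = 7.59e-05) and, among the lower genes, of TMBIM6 (-0.30) and CASP4 (-0.36). MAP3K5 averaged under 1 FPKM in siNC, so it passed the level filter only through its siPGC1a values. KDELR1, a receptor that returns ER proteins from the Golgi, was higher (0.13, limma adjusted p = 0.00857). Its call was lost under quantile scaling (0.149) and without siNC replicate 3 (0.0508).

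**Figure D5:**
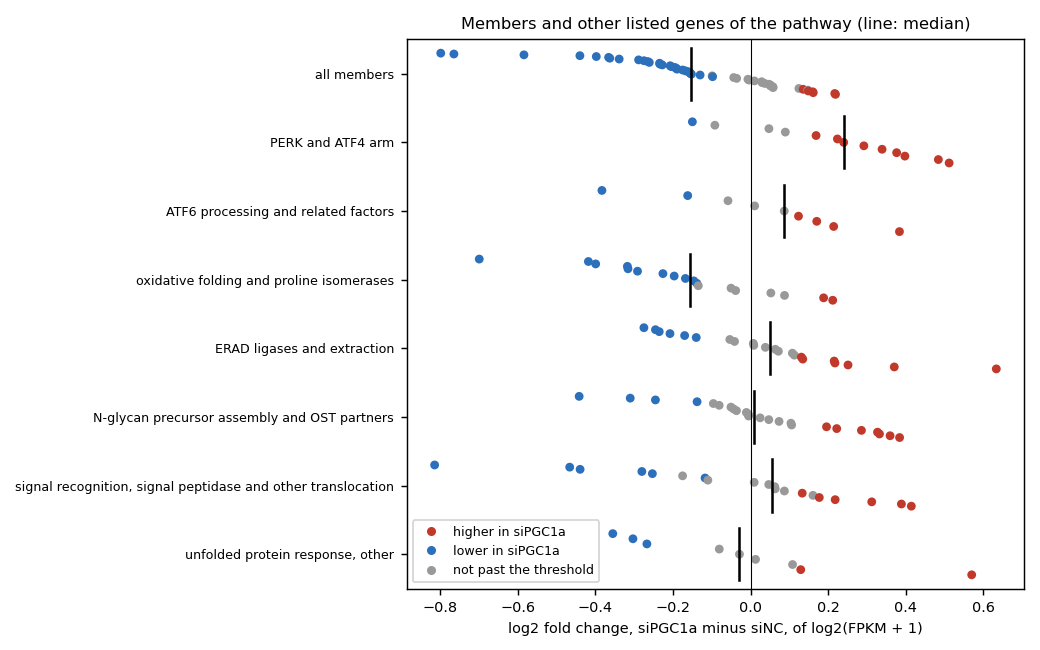
Each point is the log2 fold change of 1 tested gene, siPGC1a minus siNC, for the 50 members and the 7 other lists; colour gives the limma call and the line the median. The members and the oxidative folding list have medians of -0.15 and -0.16, and the PERK and ATF4 arm has a median of 0.24.

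Some members carry a limit of counting. Exons of 10 members overlap a tested gene on the other strand (CRELD2, DERL1, DERL2, DNAJB11, DNAJB9, HSP90B1, SDF2, SEC61A1, SSR4 and SYVN1), and the strand setting of the counting is not given in the sources used here. On the same strand, where no strand setting separates reads, exons overlap those of a tested gene in DDOST (PINK1-AS, 15.7% of its exon bases), PDIA5 (SEC22A, 12.2%), SYVN1 (FAU, 7.24%) and STT3A (CHEK1, 1.08%). Reads could also be shared with a named pseudogene in 7 members (ERP29, HSP90B1, PDIA3, SEC63, SSR1, SSR4 and XBP1). The values of these genes are uncertain to that extent, while those of HSPA5, PDIA4, GANAB and SEL1L carry none of these limits. Exons of P4HB (9.98% of its exon bases), CALR (9.95%) and CANX (2.41%) overlap a gene on the other strand that was not tested. The same holds for other members, with the largest such share in PDIA6 (25.2%).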

How the data were processed

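Poly(A) RNA of 6 WM3248 libraries, 3 of siPGC1a and 3 of siNC, was sequenced as stranded single reads, per the labels' protocols. The deposited values are FPKM per gene and library, computed by the authors. The build hg19 and the tools STAR, Picard, featureCounts and DESeq2 are named, without roles, in the submitters' processing notes. Of 57688 rows, 26707 were at 0 in all libraries. Depth was recovered from the FPKM steps of short miRNA genes with GENCODE v29 exon lengths: 98.3 to 100% of the values used were within 0.1 of a whole read (20.0% would be by chance at a depth fixed beforehand). The depth was chosen by this same share, so the share is no independent check. FPKM carry the authors' length and depth scaling, so a level is relative to the rest of its library.

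Genes with a mean of at least 1 FPKM (12020, PPARGC1A kept regardless) were compared as log2(FPKM + 1) with limma 3.58.1 (limma-trend, two-sided, no block) in R 4.3.3, with Benjamini-Hochberg adjustment over all of them and a threshold of 0.05. On simulated data with few changed genes, the script had to recover most planted changes of the largest size. Recovery of smaller changes, the size of most reported here, was not required. Libraries within a group differed by more than sampling noise (chi-square per degree of freedom 2.18 to 7.23), so none was a copy of another. The first principal component separated the groups and held 74.4% of the variance.

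Values in every library are given for the sensors, for the 3 smallest adjusted p in each direction per role group, for the most abundant gene of each, for genes below the filter and for the gene nearest to it. Of each other list, the 2 smallest adjusted p in each direction are named. Members and lists were chosen with earlier results of these data known. Sequences are from RefSeq (GRCh38.p14) and GENCODE v29, neither of which is of the authors' build, so no position is taken from the table. PECAM1, an endothelial marker, was not analysed here. In all, 14 other settings were tried: pseudocount 0.1, no filter, a filter of 5 FPKM, median centring, quantile scaling, library weights, no trend, a replicate block and leaving out each library.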

Additional observations from a re-analysis of the deposited data

How the results depend on the processing

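Over 14 other settings the lower calls of 19 members were kept in each: XBP1, HSPA5, HYOU1, DNAJC3, MANF, CANX, CALR, UGGT1, GANAB, PDIA4, P4HB, PDIA3, PDIA6, ERP29, DNAJC10, SEL1L, EDEM2, OS9 and SEC61A1. Of the higher calls, RPN1 and SDF2L1 were kept in each. The other 9 lower calls (ATF6, CRELD2, DDOST, EDEM3, ERN1, ERP44, HERPUD1, HSP90B1 and RPN2) and 4 higher calls (DAD1, DERL1, SDF2 and SYVN1) were lost in at least 1 setting, ERN1 only because a filter of 5 FPKM leaves it untested. Lower members numbered 22 to 28, and 24 to 27 when 1 library was left out; higher members numbered 4 to 5 then, 2 without the filter and 3 under quantile scaling, and the cause was not tested. The median log2 fold change of the members stayed between -0.16 and -0.12. With the filter of 5 FPKM fewer genes were tested, 1607 were lower over all genes, against 2707, and the share of lower calls was 38.9%, against 46.8%. Deviations from the group means had correlations of 0.0766, 0.2607 and -0.0575 between same-numbered libraries. Between differently numbered libraries they ran from -0.3306 to 0.2535, which does not settle whether numbers mark pairs. The labels state no block, so numbers were not taken as pairs. With the replicate block 28 members were lower and 6 higher, and 2826 genes lower and 3253 higher. SSR2 was lower under quantile scaling (limma adjusted p = 0.0156). Gene-level FPKM of 3 libraries a group cannot show splicing of XBP1, protein levels or translation.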
